A study of Mus musculus with 6 samples.

Results

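The 10 genes followed here mark the oligodendrocyte and astrocyte lineages. Their transcripts were measured in primary cultures of embryonic mouse cortex after knockdown of Ybx1, the reader of 5-methylcytosine in mRNA. They were chosen by name, with no measured value entering the rule, though earlier results of these data were known. All 10 were found among the 17920 genes listed. The oligodendrocyte lineage genes were Olig1, Olig2, Sox10, Pdgfra and Cspg4, the astrocyte genes were Aldh1l1, Gfap, Aqp4 and S100b, and the remaining gene was Egfr, the epidermal growth factor receptor of late progenitors. Cortical cells were taken at E13.5 and grown on poly-D-lysine and laminin in Neurobasal medium with B27. The 3 control libraries, WT in the sample labels, came from cultures given a lentiviral control hairpin, and the 3 KD libraries from cultures given a hairpin against Ybx1 from the same pLKO.1-Puro vector. Infected cells of both groups were selected with puromycin, so the controls carry the same vector and the same drug exposure. The paper calls the cultured cells neural stem cells or cortical progenitors. Its methods give no time in culture before infection, so the age of the cells at harvest is not known here. The genetic background of the embryos and the hairpin used for the libraries are not given in the sources used here. The methods describe the replicates as independent experiments, and the series text names 3 batches over the replicates.

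In the developing forebrain, radial glia make neurons and later turn to glia. Oligodendrocyte precursors arise mainly from ventral progenitors that carry Olig1 and Olig2, then acquire Sox10 and the platelet-derived growth factor receptor Pdgfra, and migrate into the cortex before cortical progenitors begin to make their own. Astrocyte production relies on the nuclear factor I proteins and Sox9 and on cytokine signalling through gp130 and Stat3, and Aldh1l1 marks young astrocytes and radial glia well before Gfap, Aqp4 and S100b are abundant. These were bulk libraries, in which fewer cells of a type and less RNA per cell cannot be told apart.

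Promoter sequence is shown for Olig2, Cspg4 and Egfr, since 5 of the 10 genes passed the threshold in at least 1 of the 2 fits below and 3 of these had an entry in the RefSeq promoter table. Each window holds 150 bases on the + strand of GRCm38.p6, from 250 to 101 bases before the RefSeq transcription start: chr16:91225300-91225449 for Olig2, chr9:56864854-56865003 for Cspg4 and chr11:16751953-16752102 for Egfr. Capitals mark matches, on either strand, to the motifs searched.
Olig2: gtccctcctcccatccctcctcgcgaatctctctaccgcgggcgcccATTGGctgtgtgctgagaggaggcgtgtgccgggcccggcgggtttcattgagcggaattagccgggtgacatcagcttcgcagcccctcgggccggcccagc
Cspg4: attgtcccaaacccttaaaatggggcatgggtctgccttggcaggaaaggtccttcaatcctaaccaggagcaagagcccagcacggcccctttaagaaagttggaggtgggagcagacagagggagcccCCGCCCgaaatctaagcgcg
Egfr: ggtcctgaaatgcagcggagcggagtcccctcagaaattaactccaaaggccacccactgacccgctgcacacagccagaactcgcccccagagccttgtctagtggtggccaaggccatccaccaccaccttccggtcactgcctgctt
The E-box CANNTG, the core bound by basic helix-loop-helix factors such as the Olig proteins, had 0 matches in these windows, while 49.3% of the 32851 promoter windows of the same length held it. The Sox-type element AACAAT also had 0 matches and was held by 6.31% of windows. The GC box GGGCGG and the CCAAT box, which in inverted form is the Y-box that gave Ybx1 its name, were searched after those results were seen. Cspg4 had 1 GC box on the minus strand, 120 bases before the start, and 16.7% of windows held one. Olig2 had 1 CCAAT box on the minus strand, 203 bases before the start, and 20% of windows held one. No matches of different motifs overlapped. GC content was 68.0% in the Olig2 window, 60.7% in Egfr and 56.7% in Cspg4.

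The libraries held 16294635 to 16497505 estimated counts each, and 3 counts corresponded to 0.182 to 0.184 counts per 1000000 (CPM). Ybx1 was 629 ± 21.0 CPM in WT and 116 ± 36.8 CPM in KD (SD, n = 3 each), which is −2.43 on the log2 scale (SE 0.18; edgeR adjusted p = 1.8e-04). The KD library of replicate 3, at 159 CPM, kept the most. Of 13669 genes tested, 1646 were higher and 1631 lower in KD. Eif2s3y, a Y-linked transcript, had 3 counts in replicate 2 of each group and 405 to 693 in the other 4 libraries, and libraries with the same replicate number deviated together from their group means. Values from the model that also holds the replicate number (the replicate block) are therefore given wherever it changed the call of a gene whose fold change is given.

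Markers of radial glia and neurons were abundant in every library. Across a list of 10 radial glial markers, led by Fabp7 and Ptn, the summed level ranged from 3440 to 3890 transcripts per 1000000 (TPM) in WT and from 4020 to 4340 TPM in KD. A list of 10 neuronal markers, led by Stmn2 and Tubb3, summed to 4560 to 5310 TPM in WT and 4580 to 5340 TPM in KD. Fabp7 alone averaged 2580 TPM in WT. The further lists described below summed to 1880 to 2820 TPM in WT for 25 astrocyte genes, many of them shared with radial glia, and to 743 to 889 TPM for 15 precursor genes. The 5 oligodendrocyte lineage genes summed to 306, 398 and 413 TPM in WT and 263, 303 and 331 TPM in KD. The 4 astrocyte genes summed to 59.6, 53.1 and 51.6 TPM in WT and 61.2, 52.8 and 50.2 TPM in KD. Most of the oligodendrocyte lineage sum came from Olig1 and Olig2, and most of the astrocyte sum from Aldh1l1.

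Ordered by mean TPM over the 6 libraries, a scale that divides by transcript length, the genes ran from Olig1 (178 TPM) and Olig2 (112 TPM) through Aldh1l1 (44.0 TPM), Pdgfra (31.0 TPM), Egfr (26.4 TPM) and Sox10 (11.3 TPM) to Gfap (5.65 TPM), Aqp4 (4.50 TPM), Cspg4 (3.41 TPM) and S100b (0.56 TPM). The transcription factors of the early oligodendrocyte lineage stood at the top, and transcripts typical of mature astrocytes stood near the bottom. Olig1 and Olig2 in WT were above 95.6% and 91.2% of the genes listed, Aldh1l1 above 76.1%, Gfap above 41.1% and S100b above 24.5%. Each gene from Aldh1l1 to Cspg4 overlapped over the 6 libraries with a neighbour in this order, so those places are not settled; the ranges of Egfr and Sox10 did not overlap, and S100b, with 4 to 9 counts, lay below all others in every library.

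**Figure D1:**
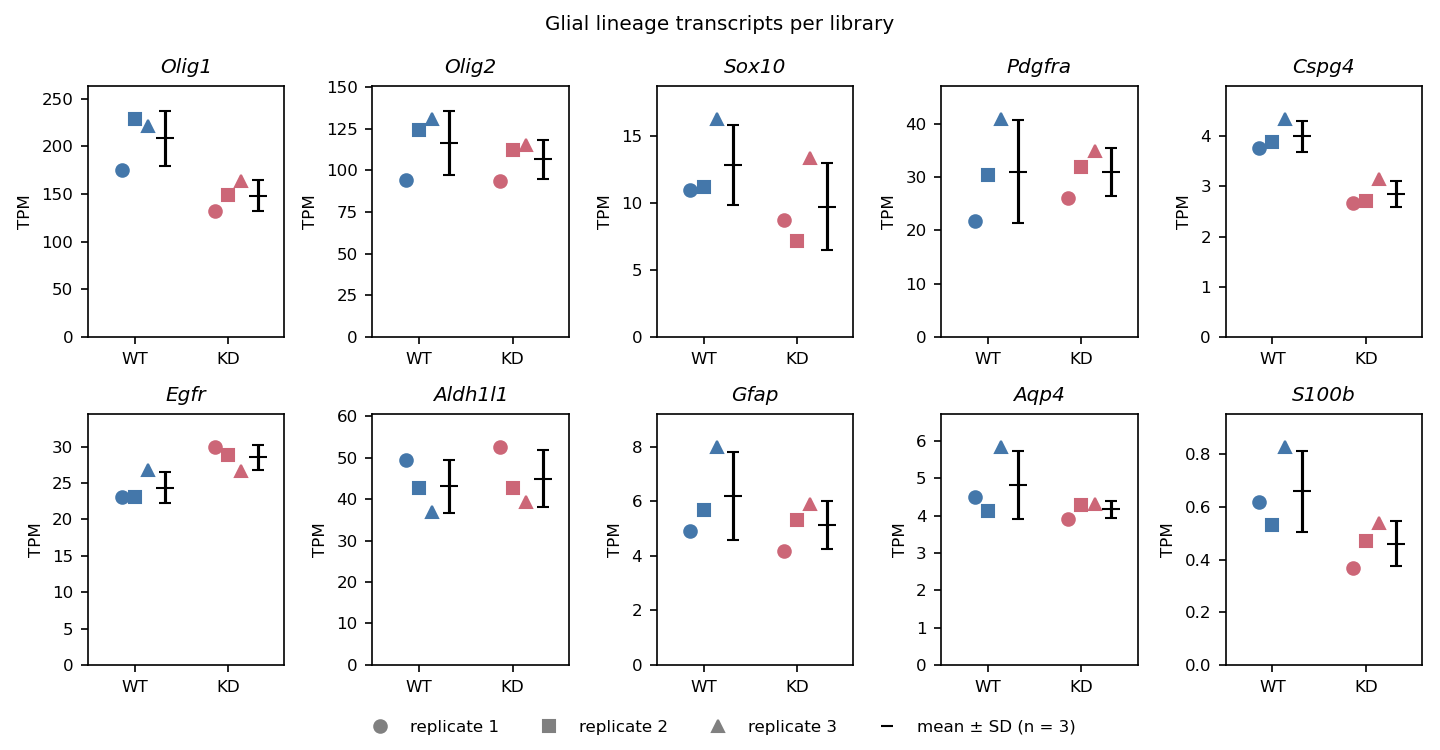
TPM of each of the 10 glial lineage genes (vertical axes start at 0 and differ between panels) in the WT and KD libraries, with symbols for the replicate number and bars for mean ± SD, n = 3. In Olig1 and Cspg4 every KD library lies below every WT library, and the other panels overlap.

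In the KD libraries Olig1 and Cspg4, a transcription factor and a surface proteoglycan of the oligodendrocyte lineage, were lower than in WT. Of the 9 genes with enough counts to be tested, 2 fell and 0 rose at an adjusted p under 0.05 (edgeR), against 11.9% of all genes tested that fell and 12% that rose. DESeq2 and limma-voom also called 2 lower and 0 higher, and at an unadjusted p under 0.05 edgeR called 2 lower and 1 higher. With the replicate block, 4 fell (Olig1, Olig2, Sox10 and Cspg4) and 1 rose (Egfr), against 18.1% and 18.6% of all genes. The median log2 fold change of the 9 was −0.27 and of all genes 0.00, and 7 of the 9 were below 0. In CPM, the KD libraries lay wholly below the WT libraries for Olig1, Cspg4 and the untested S100b, and wholly above for Egfr, where 20.6% and 21% of all genes tested did so.

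Olig1 (Entrez 50914; GRCm38 chr16:91269772-91271933, + strand) encodes a basic helix-loop-helix factor needed for oligodendrocyte maturation. It measured 175, 229 and 221 TPM in WT replicates 1 to 3 and 132, 149 and 164 TPM in KD, or 208 ± 28.8 and 149 ± 16.2 TPM (SD, n = 3). The groups did not overlap, and the lowest WT library was replicate 1, as was the lowest KD library. Its log2 fold change was −0.54 (SE 0.11; edgeR adjusted p = 0.0105), so KD stood at 0.688 times WT, and the change within replicate numbers was −0.48, −0.70 and −0.43. Leaving out any 1 library kept the adjusted p between 0.00341 and 0.0484, but without replicate 2 of both groups, the pair that nearly lacked the Y-linked transcript, the change was −0.45 with an adjusted p of 0.149.

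Olig2 (Entrez 50913; chr16:91225457-91228677, + strand), which specifies oligodendrocyte precursors and other ventral lineages, lies on the same strand with 41094 bases between the pair of genes. Its levels were 94.5, 124 and 131 TPM in WT and 93.4, 112 and 115 TPM in KD. The groups overlapped, while each KD library lay below the WT library of the same number. The log2 fold change was −0.17 (SE 0.12; edgeR adjusted p = 0.343) without the block and −0.17 (SE 0.05; adjusted p = 0.0192) with it.

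The change of Olig1 was also looked at relative to Olig2, a comparison chosen after the values were seen. The ratio of Olig1 to Olig2 TPM was 1.86, 1.85 and 1.69 in WT and 1.41, 1.33 and 1.42 in KD, or 1.80 ± 0.0946 and 1.39 ± 0.0506 (SD, n = 3). The KD ratios were all below the WT ratios and differed by −0.37 on the log2 scale. An exact two-sided permutation test gave p = 0.1, the smallest value that 3 against 3 allows, and 0.2 after Benjamini-Hochberg adjustment over the 4 ratios to Olig2 that were computed. The test shuffled the libraries freely, without regard to the replicate numbers, and could not have passed the threshold. The ratio of Cspg4 to Olig2 likewise did not overlap between groups, differing by −0.38 on the log2 scale with the same exact p. The ratios of Sox10 and Pdgfra to Olig2 overlapped between the groups, with log2 differences of −0.31 and 0.14 (exact p = 0.4 for each).

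Sox10 (Entrez 20665; chr15:79154908-79165240, − strand) encodes the factor that switches on myelin genes and is shared with neural crest. It was 11.0, 11.2 and 16.3 TPM in WT and 8.71, 7.14 and 13.4 TPM in KD. Replicate 3 was highest in each group, and the KD value of that replicate exceeded the other 2 WT values. The log2 fold change was −0.44 (SE 0.24; edgeR adjusted p = 0.211), and −0.46 (SE 0.11; adjusted p = 0.00376) with the block, with changes of −0.40, −0.73 and −0.29 within replicate numbers. Without KD replicate 3 the change was −0.75 (adjusted p = 0.0337), and without replicate 3 of both groups −0.56 (adjusted p = 0.0433). A list of 7 neural crest and Schwann cell markers, of which 6 were listed, summed to 7.67 to 10.2 TPM in WT and 6.63 to 7.56 TPM in KD. Its levels came mostly from Ngfr, a neurotrophin receptor, and 4 of the 6 were under 1 TPM in every library. Ngfr had a log2 fold change of −0.38 (SE 0.16, edgeR adjusted p = 0.121, and 0.0298 with the block). The part of such cells in the Sox10 values was not tested.

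Pdgfra (Entrez 18595; chr5:75152292-75198215, + strand), the receptor for PDGF-AA that drives precursor division, had no change past the test in either fit. Its levels were 21.7, 30.4 and 40.9 TPM in WT and 26.0, 31.8 and 34.9 TPM in KD, so that the KD range lay within the WT range. Its log2 fold change was −0.06 (SE 0.20; edgeR adjusted p = 0.866), and −0.03 (SE 0.07) with the block, with 0.18, −0.02 and −0.23 within replicate numbers. Its sign turned to 0.18 without WT replicate 3. Whether its change differed from those of Olig1 and Cspg4 was not tested beyond the ratios above.

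Cspg4 (Entrez 121021; chr9:56865033-56899870, + strand), the NG2 proteoglycan on the surface of oligodendrocyte precursors and pericytes, had the lowest level of the 5 oligodendrocyte lineage genes. It was 3.76, 3.87 and 4.34 TPM in WT and 2.67, 2.71 and 3.14 TPM in KD, from 242 to 269 and 166 to 199 counts. The groups did not overlap. The log2 fold change was −0.54 (SE 0.11; edgeR adjusted p = 0.00994), or 0.688 times the WT level, with −0.56, −0.60 and −0.47 within replicate numbers. Leaving out 1 library kept the adjusted p between 0.0109 and 0.0442, and without replicate 2 of both groups the change was −0.51 with an adjusted p of 0.131. Markers of mural cells, which also carry Cspg4, summed to 9.80 to 15.0 TPM in WT and 10.3 to 15.1 TPM in KD over 10 genes, with Notch3 and Pdgfrb the most abundant and 6 of the 10 under 1 TPM in every library. Of the 4 mural genes that could be tested 1 rose and 0 fell by edgeR, where 12% and 11.9% of all genes tested did. At an unadjusted p under 0.05 edgeR had 1 lower, and none was lower by DESeq2 or limma-voom. The median log2 fold change of the 4 was −0.02. Pdgfrb, a pericyte receptor, was higher in KD (log2 fold change 0.72, SE 0.20; adjusted p = 0.0318), and Notch3, a Notch receptor of mural cells and progenitors, had −0.27 (SE 0.10; adjusted p = 0.0751, and 0.00782 with the block).

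Egfr (Entrez 13649; chr11:16752203-16918158, + strand) marks late, multipotent progenitors and is the receptor for several growth factors that favour glial fates. It measured 23.1, 23.1 and 26.8 TPM in WT and 30.0, 28.9 and 26.6 TPM in KD. In CPM it was 64.4, 65.3 and 71.8 in WT against 78.7, 77.3 and 73.3 in KD. The groups were apart in CPM and touched in TPM, where replicate 3 was the highest WT library and the lowest KD library. The log2 fold change was 0.19 (SE 0.06; edgeR adjusted p = 0.0518), just outside the threshold. It was inside with the block (0.19, adjusted p = 0.0249), with scaling by total counts (0.21, adjusted p = 0.0352) and without WT replicate 3 (0.24, adjusted p = 0.022). Replicate 3, in which the KD library kept the most Ybx1, showed a difference of 0.03, against 0.29 and 0.24 in replicates 1 and 2; the part of Ybx1 level in this was not tested.

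Of the 3 astrocyte genes tested, 0 passed the threshold in either edgeR fit, by DESeq2 or by limma-voom. Of all genes tested 11.9% fell and 12% rose by edgeR, and 18.1% and 18.6% with the block, so 3 genes are too few to be set apart from these shares. Without the block 0 of the 3 had an unadjusted p under 0.05, and with it Gfap had 0.0326 and Aqp4 0.0332 (edgeR). Aldh1l1 (Entrez 107747; chr6:90486427-90600203, + strand), a folate enzyme used as a general astrocyte marker, was 49.5, 42.8 and 36.9 TPM in WT and 52.7, 42.7 and 39.4 TPM in KD. Both groups were highest in replicate 1 and lowest in replicate 3, and each KD library was close to its WT counterpart. Its log2 fold change was 0.00 (SE 0.13; edgeR adjusted p = 0.982), and 0.01 (SE 0.06; adjusted p = 0.946) with the block. Gfap (Entrez 14580; chr11:102887336-102900912, − strand), the astrocyte intermediate filament, was 4.89, 5.67 and 8 TPM in WT and 4.17, 5.31 and 5.88 TPM in KD. Its log2 fold change was −0.32 (SE 0.20; edgeR adjusted p = 0.288), and −0.31 (SE 0.13; adjusted p = 0.0787) with the block. The groups overlapped, with each KD library below the WT library of its number.

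Aqp4 (Entrez 11829; chr18:15389496-15410982, − strand), the water channel of astrocyte endfeet, was 4.51, 4.12 and 5.85 TPM in WT and 3.90, 4.28 and 4.32 TPM in KD. The log2 fold change was −0.27 (SE 0.14; edgeR adjusted p = 0.184), and −0.27 (SE 0.11; adjusted p = 0.0797) with the block. The groups overlapped. S100b (Entrez 20203; chr10:76253853-76261159, + strand), a calcium-binding protein of maturing astrocytes, had 7, 6 and 9 counts in WT and 4, 5 and 6 counts in KD and was left out of the test for low counts. These counts correspond to 0.62, 0.53 and 0.83 TPM in WT and 0.37, 0.47 and 0.54 TPM in KD. The groups overlapped in TPM and were apart only in CPM, on a few reads. The end of the gene, from position 76259429, overlaps Dip2a on the opposite strand, and without strand in the counting reads from that stretch cannot be told apart. Olig1, Pdgfra, Egfr, Aldh1l1, Gfap and Aqp4 also overlap annotated genes, none of them among the genes listed. The part of reads from these in the values was not tested.

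**Figure D2:**
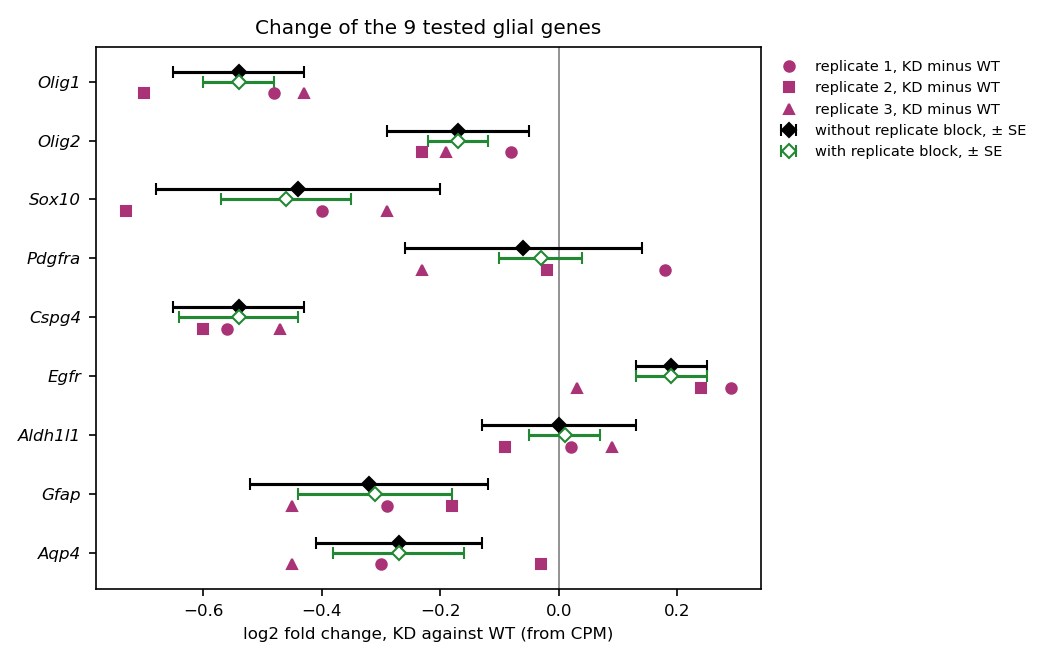
Log2 fold change in KD against WT of the 9 tested genes, from the fit without the replicate block (filled diamonds) and with it (open diamonds), ± SE, and the difference within each replicate number in CPM (circles, squares and triangles). All 3 within-number differences are below 0 for Olig1, Olig2, Sox10, Cspg4, Gfap and Aqp4, above 0 for Egfr, and on both sides for Pdgfra and Aldh1l1.

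Other genes of the precursor, myelin and astrocyte programmes were measured in lists, to be read against the 11.9% of all genes tested that fell and the 12% that rose, or 18.1% and 18.6% with the block. Of 13 further oligodendrocyte precursor genes tested by edgeR, out of 15, 1 fell and 0 rose, and their median log2 fold change was −0.11. The gene that fell was Cspg5, a brain proteoglycan of precursors and neurons, at 174, 176 and 178 TPM in WT and 150, 143 and 160 TPM in KD (−0.27, SE 0.06; adjusted p = 0.00994). The other abundant members were Ptprz1, a receptor phosphatase shared with radial glia, at 0.22 on the log2 scale (adjusted p = 0.13, and 0.00427 with the block), and Cacng4, an auxiliary AMPA receptor subunit, at −0.01 (adjusted p = 0.921). With the block 3 of the 13 fell and 1 rose, and at an unadjusted p under 0.05 edgeR had 3 lower and 1 higher.

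Myelin transcripts were scarce. Of 15 listed, 14 were in the table, 7 of these stayed under 1 TPM in every library, and 9 could be tested by edgeR, of which 1 rose and 0 fell with a median log2 fold change of −0.12. Cnp, an enzyme of myelin also found in other cells, averaged 25.4 TPM in WT and 27.0 TPM in KD, Mbp, the myelin basic protein gene, 12 and 11.4 TPM, and Mog, a surface protein of mature oligodendrocytes, 7.13 and 6.75 TPM, with log2 fold changes of 0.04, −0.12 and −0.12 that did not pass the test. The gene that rose was Ermn, a cytoskeletal protein of myelinating cells, at 0.18, 0.25 and 0.19 TPM in WT and 1.08, 0.84 and 0.44 TPM in KD (1.84, SE 0.42; adjusted p = 0.015). The count of 0 lower myelin genes also held at an unadjusted p under 0.05 and by DESeq2 and limma-voom. The highest library of Ermn had 29 counts, and leaving out 1 library took the adjusted p up to 0.0524.

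Of 22 further astrocyte genes tested, out of 25, 1 rose and 2 fell, with a median log2 fold change of −0.09. Tnc, an extracellular matrix protein of radial glia and astrocytes, was 56.3, 59.9 and 78.5 TPM in WT and 94.5, 115 and 105 TPM in KD. Every KD library exceeded every WT library (0.61, SE 0.11; adjusted p = 0.0053). Glul, glutamine synthetase, was 194, 208 and 240 TPM in WT and 182, 176 and 185 TPM in KD (−0.29, SE 0.07; adjusted p = 0.0196), and Atp1b2, a sodium pump subunit, changed by −0.20 (SE 0.06; adjusted p = 0.0482). Leaving out 1 library took the adjusted p up to 0.0746 for Glul and 0.165 for Atp1b2. Apoe, the lipid carrier and the most abundant of the list, averaged 530 TPM in WT and 447 TPM in KD, which is −0.29 on the log2 scale (adjusted p = 0.35, and 0.00524 with the block), and Sparcl1, a matrix protein, had 0.10 (adjusted p = 0.791). With the block 2 of the 22 rose and 6 fell.

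Regulators that act upstream of gliogenesis were measured as a further list. Of the 11 listed and tested, 4 rose and 1 fell, with a median log2 fold change of 0.37, and with the block 8 rose and 2 fell. Of all genes tested 12% rose and 11.9% fell, and 18.6% and 18.1% with the block. Gli3, a transcription factor of the Hedgehog pathway, was 4.32, 3.83 and 4.86 TPM in WT and 11.8, 8.76 and 7.27 TPM in KD (1.03, SE 0.16; adjusted p = 0.0031). Every KD library of Gli3 lay above every WT library, and KD replicate 1 was highest. Nfib, a nuclear factor I protein, rose by 0.47 (SE 0.15; adjusted p = 0.0475, up to 0.155 when 1 library was left out), and Hes1, a Notch target named here after its value was seen, by 0.49 (SE 0.15; adjusted p = 0.0445, up to 0.127). Etv4, a target of fibroblast growth factor signalling, was 20.6, 22.5 and 20.7 TPM in WT and 13.6, 15.9 and 15.3 TPM in KD (−0.57, SE 0.09; adjusted p = 0.00398). Nfix, the most abundant of the list, ran from 78.9 to 186 TPM in WT and 124 to 221 TPM in KD, a difference of 0.37 on the log2 scale (adjusted p = 0.392, and 1.3e-04 with the block). Several of these genes are also expressed by progenitors that make neurons.

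Among ligands and receptors of the PDGF and EGF families, 13 of 18 could be tested, 3 rose and 4 fell, where 12% and 11.9% of all genes did, and the median log2 fold change was −0.06. Pdgfa, which encodes the ligand of Pdgfra, fell in counts (−0.40, SE 0.06; adjusted p = 0.00313), whereas its TPM overlapped, at 38.6, 37.3 and 42.4 in WT and 40.2, 36 and 35.7 in KD. Pdgfc, a further ligand of Pdgfra, rose from 5.99, 5.85 and 6.58 TPM in WT to 8.93, 10.7 and 10 TPM in KD (0.60, SE 0.11; adjusted p = 0.00538). For the same receptor the counts of the ligand transcripts thus went in opposite directions. Erbb4, a neuregulin receptor of neurons, fell from 31.0, 27.8 and 24.9 TPM to 20.4, 22.1 and 16.1 TPM (−0.56, SE 0.11; adjusted p = 0.00882), and Lrig1, an inhibitor of EGF receptors, fell by 0.26 on the log2 scale (SE 0.07; adjusted p = 0.0278). Hbegf, a ligand of Egfr, at −0.39 (adjusted p = 0.0266), and Nrg1, a neuregulin, at 0.26 (adjusted p = 0.0466), complete the genes that passed beside Pdgfrb, and were named after their values were seen. Leaving out 1 library took the adjusted p of Lrig1, Hbegf, Nrg1 and Pdgfrb past the threshold, up to 0.0905, 0.0958, 0.131 and 0.115.

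In the gp130, JAK and STAT pathway, 11 of the 14 genes in the table were tested by edgeR, 1 rose and 0 fell, with a median log2 fold change of 0.13. Of all genes tested 12% rose and 11.9% fell. The gene that rose was Stat3, the transcription factor that activates Gfap, at 30.4, 27.1 and 28.3 TPM in WT and 36.4, 35.0 and 31.6 TPM in KD (0.21, SE 0.06; adjusted p = 0.0434, up to 0.145 when 1 library was left out). The receptor Cntfr and the kinases Jak1 and Jak2, the most abundant members, had log2 fold changes of −0.09, −0.01 and 0.13, none of which passed the test. At an unadjusted p under 0.05 edgeR had 2 higher and 0 lower, and DESeq2 called 0 and limma-voom 1.

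**Figure D3:**
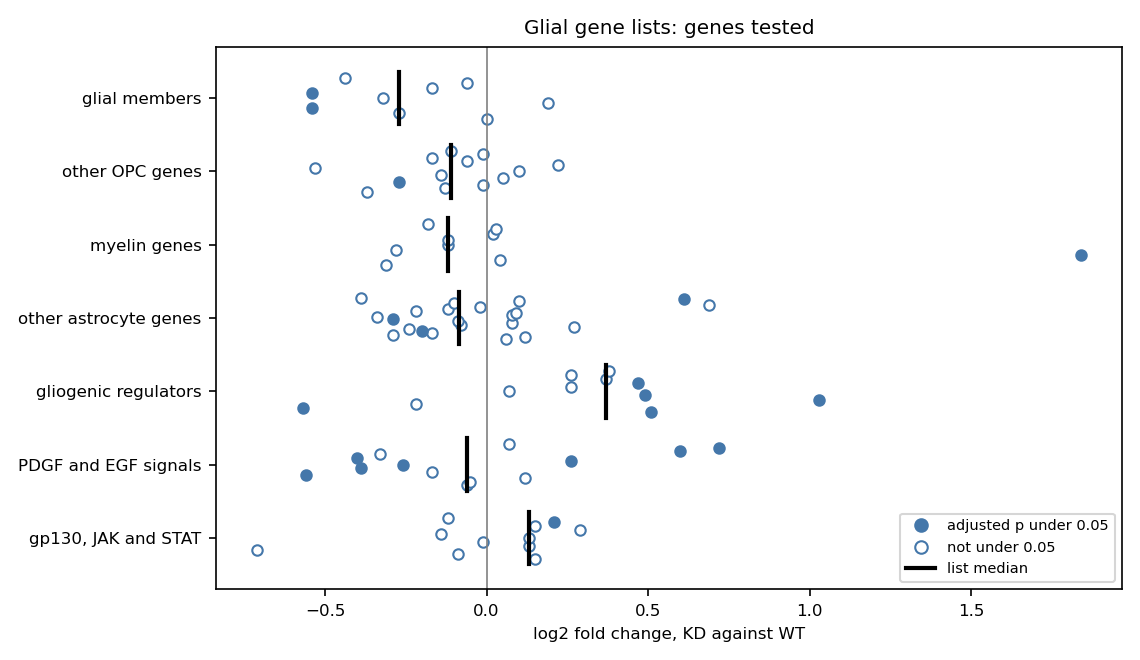
Log2 fold change in KD against WT (horizontal axis) of each tested gene in the group of 10 and in 6 further lists, filled where the adjusted p was under 0.05, with the median of each list as a bar. The medians lie between −0.27 for the glial lineage genes and 0.37 for the gliogenic regulators.

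Markers of other cells that can carry these transcripts were measured beside them. A list of 10 ventral forebrain genes, led by Gad1 and Lhx6 of inhibitory neurons, summed to 721, 568 and 489 TPM in WT and 821, 630 and 532 TPM in KD, highest in replicate 1 of both groups, where Olig1, Olig2 and Pdgfra were lowest. A list of 7 intermediate progenitor genes, led by Gadd45g and Insm1, summed to 74.9 to 104 TPM in WT and 159 to 185 TPM in KD. Endothelial genes, led by Esam and Pecam1, summed to at most 2.7 TPM over 8 genes, microglial genes, led by C1qa and C1qb, to at most 8.34 TPM over 10, and meningeal genes, led by Zic1 and Dcn, to 9.6 to 21.2 TPM over the 8 in the table. No gene of these lists was at 0 in all 6 libraries. Within replicate numbers the ventral, neuronal, radial glial and intermediate progenitor sums were higher in KD in all 3 pairs. The neural crest and Schwann cell sum was lower in all 3. The neuronal differences were small, at 4560, 4940 and 5310 TPM in WT and 4580, 5140 and 5340 TPM in KD. TPM lack the scaling between libraries that the edgeR fits use, and how far this moved the sums was not tested. The radial glial and neuronal sums, which were not tested, came mostly from their leading genes. By edgeR, Fabp7 had 0.04 and Ptn 0.11 on the log2 scale (adjusted p = 0.601 and 0.314). Stmn2 had −0.20 and Tubb3 −0.06 (edgeR adjusted p = 0.0466 and 0.699). Of 10 radial glial genes 2 rose and 0 fell, and of 10 neuronal genes 2 rose and 1 fell, against 12% and 11.9% of all genes. With the block these were 6 and 0, and 5 and 1, against 18.6% and 18.1%. The WT and KD ranges of the ventral, neuronal, mural, meningeal, endothelial and microglial sums overlapped, those of the neural crest and Schwann cell sum were lower and those of the radial glial and intermediate progenitor sums higher in KD, and the part of these cells in the changes of the glial genes was not tested.

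**Figure D4:**
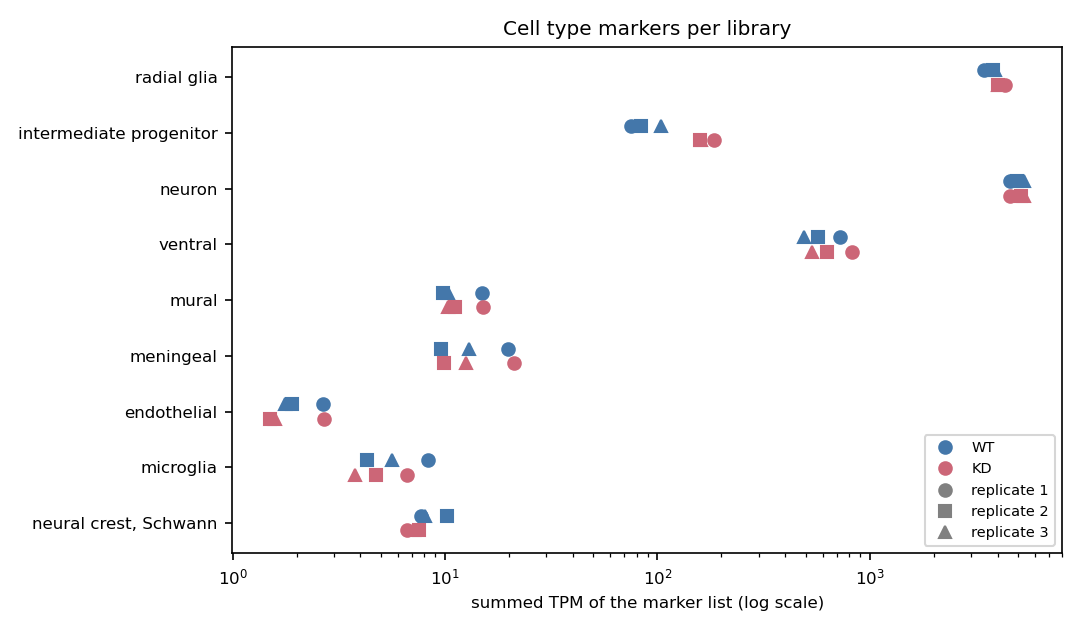
Summed TPM of 9 marker lists in each library (horizontal axis, log scale), blue for WT and red for KD, with symbols for the replicate number. Radial glial and neuronal sums are at least 3440 TPM, endothelial sums are at most 2.7 TPM, and intermediate progenitor sums are higher in every KD library than in any WT library.

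The genes whose CPM profile over the 6 libraries was most like that of Olig1, the most abundant of the group, were Wars (Pearson r = 0.996), St3gal5 (r = 0.994) and Rnf4 (r = 0.992). Those most like Cspg4, the gene with the smallest adjusted p, were Ptpn5 (r = 0.997), Cd81 (r = 0.996) and Rasgrp2 (r = 0.996). These are descriptions over 6 libraries that share 2 groups, taken as the highest of 11438 genes compared, and carry no test. None of the 6 is an oligodendrocyte lineage gene of the lists used here.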

How the data were processed

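RNA-seq of 3 WT and 3 KD libraries of mouse cortical cells from E13.5 was used. The authors deposited estimated counts and TPM per gene. The submitters' processing notes name HISAT2 2.2.1, Bowtie2 2.4.5 and RSEM 1.3.1 and the build GRCm38 (mm10), and whether counting used strand is not given in the sources used here. The deposited TPM divide the estimated counts by transcript length and depth, so they can move with isoform lengths where counts do not. The column names call the controls Ctrl, and 12 columns of FPKM and group averages were not used. Of the deposited values, 89.3% to 89.85% per library were whole, and those of all 10 genes were.

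Estimated counts were rounded and tested with edgeR 4.0.16 (quasi-likelihood, TMM scaling, filterByExpr with a minimum count of 10) in R 4.3.3 over all 13669 genes that passed, with Benjamini-Hochberg adjusted p and a threshold of 0.05. The biological coefficient of variation was 7.7%. Deviations from the group means correlated at 0.351, 0.32 and 0.178 for equal replicate numbers and at -0.276 to -0.018 for different numbers, so the numbers pair the libraries, and the replicate block was added as a second model. Alternatives were other scalings and filters, DESeq2 1.42.0, limma 3.58.1 (voom, and limma-trend on log2(TPM + 1)), the block and leaving out libraries. The fits without the replicate block were run on simulated data with independent libraries, as a check of the code. The fit with the block was not checked in this way. Gene positions are from GENCODE M21. The floor of 3 counts covers counting error only.

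The genes, lists and tests were chosen with earlier results of these data known. All 10 genes are named. For each pathway list the 3 genes with the largest mean TPM and up to 3 that passed the test with the largest change are named, and for each cell type list the 2 with the largest mean TPM. A gene of the regulator list that this rule names is not reported here. Profiles were compared over genes averaging at least 5 CPM.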

Additional observations from a re-analysis of the deposited data

How the results depend on the processing

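Olig1 and Cspg4 stayed lower and past the threshold in 17 of 18 alternatives each, with log2 fold changes of -0.65 to -0.45 and -0.63 to -0.38. The exception was leaving out replicate 2 of both groups, an alternative chosen after seeing the data, where Olig1 had -0.45 (adjusted p = 0.149) and Cspg4 -0.51 (adjusted p = 0.131) and 0 of the genes fell. Gfap and Aqp4 kept their direction and stayed short of the threshold in all 18. S100b, with 4 to 9 counts, had an adjusted p of 0.451 with no filter on counts (-0.56) and 0.384 on the TPM scale (-0.18).

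Under the replicate block, 2539 of all genes were higher and 2470 lower in place of 1646 and 1631, and 1 of the glial genes was higher and 4 lower in place of 0 and 2. Under the block the counts higher and lower were 2 and 6 for further astrocyte genes, 8 and 2 for gliogenic regulators and 1 and 3 for further precursor genes, and 3 and 5 for PDGF and EGF signals. The pairing changed no other call among the 10 genes. Limma-trend on TPM gave 2067 higher and 1049 lower genes. Total count scaling gave 1 glial gene higher and 1 further astrocyte gene lower. Ordered by CPM, without division by length, 5 of the 10 genes took another place. Leaving out 1 library, or both of a replicate number, gave 135 to 1612 genes higher and 93 to 1583 lower (779 to 1612 and 797 to 1583 for 1 library), 0 to 1 glial genes higher and 0 to 3 lower. The lowest counts for 1 library came without WT replicate 2, and without replicate 2 of both groups they were 135 and 93, against 1025 and 944 without replicate 1 of both. For the lists, leaving out 1 library gave 1 to 2 further astrocyte genes higher and 0 to 2 lower, 2 to 6 gliogenic regulators higher and 1 to 2 lower, 0 to 1 gp130, JAK and STAT genes, myelin genes and further precursor genes higher, and 1 to 3 PDGF and EGF signals higher and 2 to 4 lower.

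Aldh1l1, at 0.00, turned to -0.02 under upper quartile scaling, to -0.12 to -0.10 on leaving out KD replicate 1 or WT replicate 3 (range -0.12 to 0.12), and to -0.00 and -0.03 without replicate 1 or 3 of both groups. Pdgfra, at -0.06, turned to 0.03 on the TPM scale, to 0.06 without KD replicate 1, to 0.18 without WT replicate 3 (range -0.25 to 0.18) and to 0.07 without replicate 3 of both. Egfr passed the threshold also without replicate 3 of both groups (0.27, adjusted p = 0.0232). The cause of these shifts was not tested.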

Other observations

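Of the 10 ventral forebrain genes, 3 passed the test, all upwards, where 12% of all genes tested rose and 11.9% fell. With the replicate block 4 rose and 1 fell, against 18.6% and 18.1%. The 3 that passed without the block were named after their values were seen. Dlx2, a homeobox factor of ventral progenitors, was 30.7, 24.7 and 28 TPM in WT and 85.1, 59.6 and 58.2 TPM in KD (log2 fold change 1.23, SE 0.14; edgeR adjusted p = 9.6e-04). Sp8, a zinc finger factor, rose by 0.60 (SE 0.11; adjusted p = 0.0053) and Gsx2, a patterning factor of the lateral ganglionic eminence, by 0.86 (SE 0.23; adjusted p = 0.0258, up to 0.0708 when 1 library was left out). In TPM every KD library lay above every WT library for Dlx2, Sp8 and Gsx2. Gad1, the enzyme that makes GABA, and Lhx6, a factor of cortical interneurons, had log2 fold changes of -0.25 (adjusted p = 0.351, and 0.00165 with the replicate block) and -0.08 (adjusted p = 0.821).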
